A study of Mus musculus with 6 samples.

Results

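The acute phase orosomucoid and serum amyloid genes are 10 genes of the hepatic acute phase response, chosen by name, namely Orm1, Orm2, Orm3, Saa1, Saa2, Saa3, Saa4, Lcn2, Hp and Hpx. Of these, 9 had a probe set that names that gene alone, out of 22180 genes measured in this way. Saa1 had none, because its probe set also lists Saa2. The arrays compared non-tumorous liver of 3 MUTYH-null mice (Mutyh -/-, mice 3003, 3007 and 3008), which had developed liver tumors, with liver of 3 wild-type mice (Mutyh +/+, mice 1025, 1027 and 1001), which had not. All 6 were male, of C57BL/6 background, and from 8 weeks of age had received the HFHC + high-iron diet for 9 months. It was a high-fat high-carbohydrate (HFHC) diet with added iron, given with fructose and sucrose in the drinking water. The Mutyh allele was lost in the whole animal, and only MUTYH-null mice with tumors were profiled, so genotype and the presence of tumors cannot be told apart.

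Each mouse gave 1 array. Values are log2 signals from Robust Multi-Array Average (RMA) normalization by the authors, and array medians lay between 4.51 and 4.55. The Mutyh probe set read 4.43, 4.65 and 4.34 in MUTYH-null livers and 4.44, 4.36 and 4.48 in wild-type livers. None of the sources says whether it covers the altered region, so it checks no label. All 12 hepatocyte markers measured had means above the median of all probe sets, as liver tissue should.

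The acute phase response is the change in secreted plasma proteins that hepatocytes make after injury or infection. Interleukin-6 acts on hepatocytes through its receptor and the transcription factor STAT3, while interleukin-1 and tumor necrosis factor act through NF-κB, and C/EBP factors take part in both arms. Orosomucoids, also called α1-acid glycoproteins, carry small molecules in plasma, and serum amyloid A proteins bind high density lipoprotein. Haptoglobin and hemopexin bind free hemoglobin and heme, and lipocalin-2 binds iron-carrying bacterial siderophores.

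Orm3, the third orosomucoid gene, was the only one of the 9 measured genes whose 3 MUTYH-null mice all lay above the 3 wild-type mice, and its mean was 1.94-fold that of wild-type liver. Differences of the other 8 genes lay between -0.03 and 0.26 log2, with intervals that included 0. Groups did not overlap, with MUTYH-null higher, in 4.23% of all genes, lower in 5.29% and in either direction in 9.53%, so 1 of 9 is near the share over all genes. The difference was positive in 8 of the 9, against 47.5% of all genes, and its median was 0.08 log2, against -0.01 log2 over all genes. Without mouse 3003 it was positive in 7 of 9.

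Orm3 had log2 values of 7.90, 7.29 and 7.67 in MUTYH-null livers 3003, 3007 and 3008 and of 6.84, 6.19 and 6.95 in wild-type livers 1025, 1027 and 1001. The lowest MUTYH-null mouse stood above the highest wild-type mouse, and mouse 1027 stood well below the other two of its group. Its mean was 7.62 ± 0.31 log2 with the mutant genotype and 6.66 ± 0.41 log2 in wild-type liver (SD, n = 3 each). The difference, here and below MUTYH-null minus wild-type, was 0.96 log2 (standard error 0.22, 95% interval 0.44 to 1.47). In limma the unadjusted p was 0.00265, and the adjusted p over all genes was 0.963. By the exact permutation test, two-sided, p was 0.1, the smallest that 3 mice against 3 allow. Without mouse 1027 the difference was 0.72 log2. No gene of 22180 passed an adjusted p under 0.05 in limma (0.0%), and 5.09% had an unadjusted p under 0.05, of which the higher ones made up 2.29% of all genes. Of the 9 genes described here, 1 was among these higher ones. These genes were chosen with earlier results of the same data known, so the count is not independent support.

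**Figure D1:**
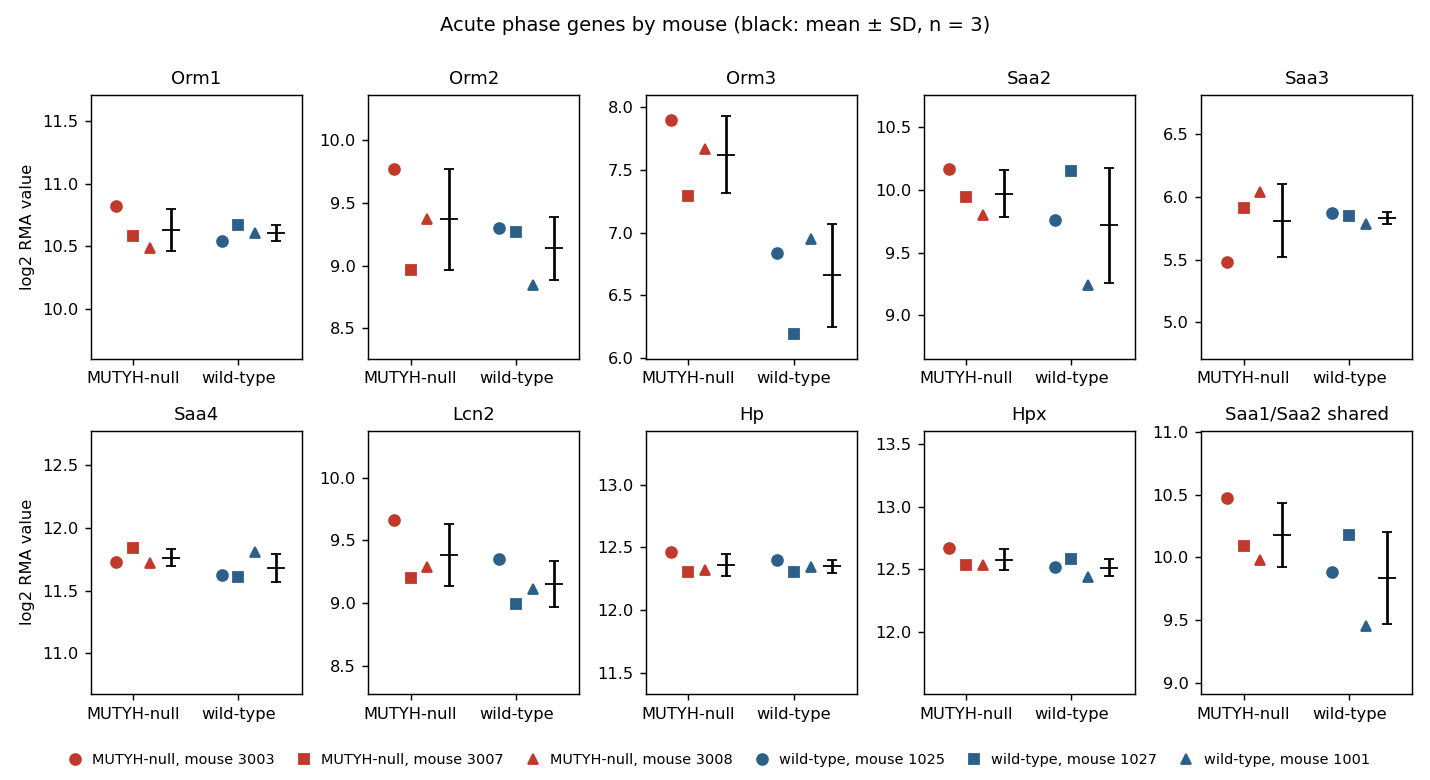
Log2 RMA value of each of the 9 genes and of the probe set that Saa1 and Saa2 share, with 1 point per mouse, MUTYH-null mice in red and wild-type mice in blue, and the mean ± SD (n = 3) in black. Every panel spans the same range on the log2 axis, and only in Orm3 do the 3 red points all lie above the 3 blue points.

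Orm2, the neighboring orosomucoid gene, had values of 9.77, 8.97 and 9.37 log2 in MUTYH-null livers 3003, 3007 and 3008 and of 9.30, 9.27 and 8.85 log2 in wild-type livers 1025, 1027 and 1001. The groups overlapped, since mouse 3007 lay below 2 wild-type mice. The difference was 0.23 log2 (95% interval -0.26 to 0.71, limma adjusted p = 0.993), and it was 0.02 log2 without mouse 3003. Orm1 was the steadiest of the 3 orosomucoids, at 10.82, 10.58 and 10.49 log2 in MUTYH-null livers and 10.54, 10.67 and 10.61 log2 in wild-type livers. Here mouse 3003 was the highest of all and mouse 3008 the lowest, so that the wild-type mice lay between them. Its difference was 0.02 log2 (95% interval -0.23 to 0.28, limma adjusted p = 0.996).

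The Orm3 values were also set against those of its relatives within each mouse, which restates the Orm3 difference where the relative differed little and is no separate support for it. The log2 difference between Orm3 and Orm1 was -2.93, -3.29 and -2.82 in the MUTYH-null livers and -3.69, -4.48 and -3.66 in the wild-type livers, with no overlap. The group difference of this ratio was 0.94 log2 (exact permutation test, two-sided p = 0.1, the smallest possible), over 0.67 to 1.08 log2 with each mouse left out. For Orm3 against Orm2 the values were -1.88, -1.68 and -1.70 in MUTYH-null livers and -2.46, -3.08 and -1.91 in wild-type livers. These groups were separated only by the gap between mouse 3003 and mouse 1001, at -1.88 and -1.91. That group difference was 0.73 log2 (exact permutation test, two-sided p = 0.1), or 0.43 log2 without mouse 1027. Orm2 against Orm1 overlapped, with a group difference of 0.20 log2 (exact permutation test, two-sided p = 0.5). The offset between probe sets has no meaning in itself, and only its change between mice is read. The 3 orosomucoids are close paralogs, and how far their probe sets detect each other was not tested.

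**Figure D2:**
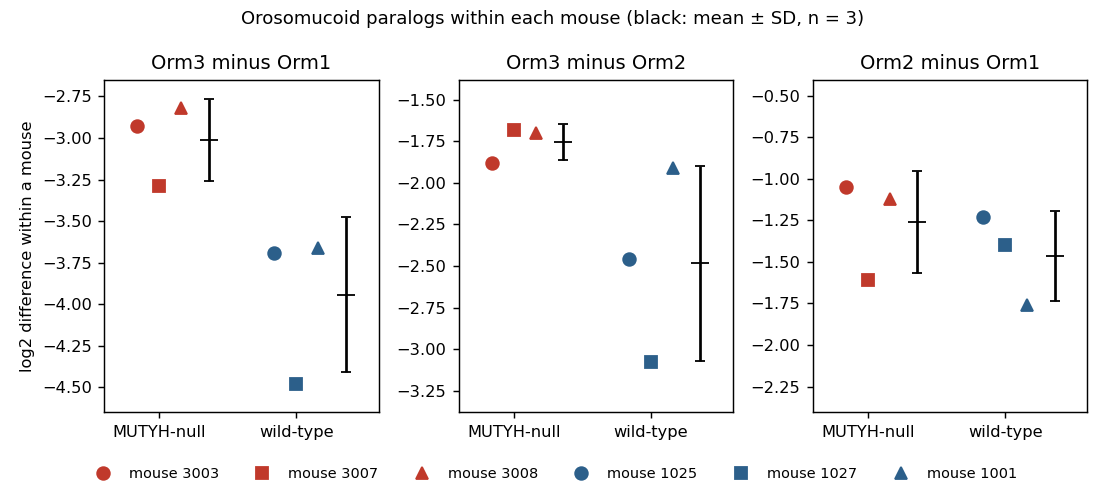
Log2 difference between pairs of orosomucoid genes within each mouse, with MUTYH-null mice in red, wild-type mice in blue and the mean ± SD (n = 3) in black. The groups do not overlap where Orm3 is one of the pair, with differences of 0.94 log2 against Orm1 and 0.73 log2 against Orm2, and they overlap for Orm2 against Orm1.

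The promoters of Orm2 and Orm3 are shown because Orm3 is the gene whose groups did not overlap and Orm2 is its neighbor on chromosome 4. Each window runs from 250 bases before to 50 bases after the start of the gene, on the plus strand of GRCm38.p6, and is from RefSeq. Capitals mark the C/EBP pattern TTNNGNAA, read on both strands, which no match to the other patterns searched overlaps in these windows. The windows are chr4:63362199-63362498 for Orm2 and chr4:63355908-63356207 for Orm3.
Orm2: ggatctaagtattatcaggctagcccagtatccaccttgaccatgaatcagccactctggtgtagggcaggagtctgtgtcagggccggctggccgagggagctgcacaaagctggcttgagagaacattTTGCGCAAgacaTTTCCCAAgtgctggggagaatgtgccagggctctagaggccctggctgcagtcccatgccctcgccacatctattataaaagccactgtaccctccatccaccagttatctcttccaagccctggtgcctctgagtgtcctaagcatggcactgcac
Orm3: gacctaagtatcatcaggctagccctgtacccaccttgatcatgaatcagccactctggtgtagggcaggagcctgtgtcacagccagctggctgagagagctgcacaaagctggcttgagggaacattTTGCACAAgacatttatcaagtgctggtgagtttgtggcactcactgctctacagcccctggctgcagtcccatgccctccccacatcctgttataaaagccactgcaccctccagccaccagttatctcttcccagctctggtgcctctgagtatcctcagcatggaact
Over 295 aligned bases, 89.2% were identical and 32 differed.

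A C/EBP pattern stands in both, as TTGCGCAA starting at base -120 of Orm2 and TTGCACAA at base -121 of Orm3, where base -1 is the last before the start. Orm2 has another, TTTCCCAA, at base -108. It also holds the hexamer AGAACA, to which the glucocorticoid receptor can bind, at base -128, which the Orm3 window does not. A TATA box, TATAAA on the gene strand, was found at base -33 of Orm2 and -29 of Orm3. Promoter windows matched 8 of the 10 genes by symbol, all except Orm1 and Hp. All 8 held the C/EBP pattern, as did 40.7% of all 32851 promoter windows. Saa1 and Saa2 share the form TTGCACAA, and their windows were 96.0% identical over 299 aligned bases. The hexamer, on both strands, was in 1 of the 8 windows, against 19.0% of all windows, and the TATA box in 2, against 8.32%. The STAT pattern TTCNNNGAA, on both strands, was in 0 of the 8 windows and in 8.30% of all windows. The NF-κB pattern GGNNTTTCC, on both strands, was in 1 of the 8, that of Saa3 at base -187, where it overlaps a C/EBP match. It was in 5.82% of all windows. This form was searched after one longer by 1 base had matched 0 of the 8, so its count is not independent of these windows. A match is a run of letters, and neither its presence nor its absence shows whether a factor binds. Binding was not measured.

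Saa2 encodes, with Saa1, the main serum amyloid A proteins that liver secretes in the acute phase. Its probe set read 10.17, 9.94 and 9.80 log2 in MUTYH-null livers 3003, 3007 and 3008 and 9.76, 10.15 and 9.24 log2 in wild-type livers 1025, 1027 and 1001. Wild-type mice took both the second-highest place and the lowest, and the groups overlapped. The difference was 0.26 log2 (95% interval -0.24 to 0.75, limma adjusted p = 0.988). It depended on which wild-type mouse was kept, at 0.47 log2 without mouse 1027 (limma unadjusted p = 0.0374) and 0.02 log2 without mouse 1001. The probe set that lists both Saa1 and Saa2 read 10.47, 10.09 and 9.98 log2 in MUTYH-null livers and 9.88, 10.18 and 9.45 log2 in wild-type livers, a difference of 0.34 log2 (95% interval -0.18 to 0.86). It put the 6 mice in the same order as the Saa2 probe set. Signal from Saa1 and Saa2 cannot be told apart in the shared probe set. How far the Saa2 probe set also detects Saa1 was not tested.

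Saa4, the constitutively made serum amyloid A of liver, varied little, at 11.73, 11.84 and 11.72 log2 in MUTYH-null livers and 11.62, 11.61 and 11.81 log2 in wild-type livers. The difference was 0.08 log2 (95% interval -0.14 to 0.30, limma adjusted p = 0.993), and mouse 1001 lay among the MUTYH-null mice. Saa3, which macrophages and adipocytes make in inflamed tissue, read 5.48, 5.91 and 6.04 log2 in MUTYH-null livers and 5.87, 5.85 and 5.78 log2 in wild-type livers. The wild-type mice were close together, and the MUTYH-null mice spread to both sides of them. Its difference was -0.03 log2 (95% interval -0.36 to 0.31, limma adjusted p = 0.996), and it was 0.14 log2 without mouse 3003, the lowest of the 6. None of 6 adipocyte markers had an unadjusted p under 0.05 in limma. Adipoq, Plin1, Cidec and Retn had -0.17, -0.15, 0.18 and 0.06 log2, and the summed level of the list was 10.23 to 10.64 log2 in MUTYH-null livers and 10.11 to 10.27 log2 in wild-type livers. Cidec, at 9.77 to 10.29 log2 over the 6 mice, made up most of this sum, while Adipoq stood at 3.32 to 3.79 log2. The sum is therefore no measure of adipocyte content. The part of macrophages and adipocytes in the Saa3 values was not tested.

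Lcn2, for lipocalin-2, had 9.66, 9.20 and 9.29 log2 in MUTYH-null livers 3003, 3007 and 3008 and 9.35, 8.99 and 9.11 log2 in wild-type livers 1025, 1027 and 1001. Mouse 3003 stood highest, and mouse 1025 lay above the other two MUTYH-null mice. The difference was 0.23 log2 (95% interval -0.11 to 0.57, limma adjusted p = 0.969), or 0.10 log2 without mouse 3003. Neutrophils also store lipocalin-2 in granules. Of 13 neutrophil markers measured, 12 had means below the median of all probe sets, and their summed level was 7.64 to 7.75 log2 in MUTYH-null livers and 7.69 to 7.79 log2 in wild-type livers. The defining markers Ly6g, S100a8 and S100a9 had differences of 0.06, 0.01 and -0.14 log2. The collagenase gene Mmp8 was lower by 0.31 log2 at an unadjusted p of 0.00931 in limma (adjusted p = 0.963). It was the only 1 of the 13 at an unadjusted p under 0.05, and lower calls were 2.8% of all genes. Its group means, 3.27 and 3.59 log2, lay below 4.51 log2, the median over all probe sets, so the fit without dim genes did not include it. In whole tissue, fewer cells of a type and less RNA per cell cannot be told apart.

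Hp, for haptoglobin, was within 0.16 log2 in all 6 mice, at 12.46, 12.30 and 12.32 log2 in MUTYH-null livers and 12.40, 12.30 and 12.34 log2 in wild-type livers. The difference was 0.01 log2 (95% interval -0.19 to 0.22, limma adjusted p = 0.997). Hpx, for hemopexin, had 12.67, 12.53 and 12.53 log2 in MUTYH-null livers and 12.52, 12.58 and 12.44 log2 in wild-type livers. Its groups overlapped as well, with a difference of 0.06 log2 (95% interval -0.14 to 0.27, limma adjusted p = 0.993).

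**Figure D3:**
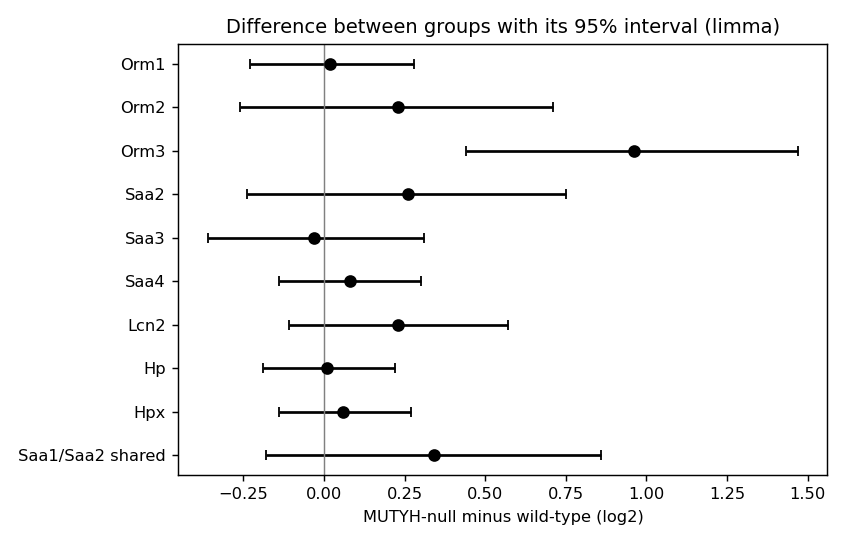
MUTYH-null minus wild-type difference of each gene and of the shared Saa1 and Saa2 probe set in log2, with the 95% interval from limma (n = 3 mice per group). The interval of Orm3, 0.44 to 1.47 log2, lies above 0, and all others cross it.

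Receptors that clear these proteins were examined as well. Cd163, the macrophage receptor for haptoglobin bound to hemoglobin, had 4.04, 4.15 and 3.97 log2 in MUTYH-null livers 3003, 3007 and 3008 and 5.02, 4.03 and 4.97 log2 in wild-type livers 1025, 1027 and 1001. Wild-type mice 1025 and 1001 stood high, while mouse 1027 was level with the MUTYH-null mice. The difference was -0.62 log2 (standard error 0.24, limma unadjusted p = 0.034, adjusted p = 0.963), and the unadjusted p passed 0.05 when any of the other 5 mice than 1027 was left out, up to 0.117. Its group means, 4.05 and 4.67 log2, average less than 4.51 log2, the median over all probe sets, so it was not among the genes fitted when dim genes were left out. It was the only one of 10 receptor and cargo genes at an unadjusted p under 0.05. Lower calls made up 2.8% of all genes. Lrp1, the receptor for hemopexin bound to heme, and Hmox1, which breaks heme down, had 0.12 and -0.04 log2. Slc22a17, a receptor for lipocalin-2, had 0.03 log2. Of 11 macrophage markers, 2 were lower and 1 higher at an unadjusted p under 0.05 in limma, against 2.8% and 2.29% of all genes. These were the resident macrophage genes Marco and Timd4, with -0.38 and -0.64 log2, and Gpnmb, of lipid-associated macrophages, with 0.42 log2. Clec4f, also of resident macrophages, and Trem2, also of lipid-associated macrophages, had -0.21 and 0.24 log2 and were not called. The groups overlapped in Clec4f, Trem2 and Gpnmb. Timd4, with group means of 4.06 and 4.70 log2, was also too dim for the fit without dim genes. The p of Gpnmb reached 0.115 and that of Timd4 0.0513 with 1 mouse left out. The pan-macrophage markers Adgre1, Cd68 and Csf1r had -0.05, 0.21 and -0.01 log2, and the summed level of the list was 10.45 to 10.80 log2 in MUTYH-null livers and 10.20 to 10.85 log2 in wild-type livers. The part of macrophages in the Cd163 value was not tested.

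A list of cytokine, receptor, signaling and transcription factor genes of the acute phase response, inhibitors included, had 25 measured genes. Of these, 2 were higher at an unadjusted p under 0.05 in limma, against 2.29% of all genes, and none was lower. The groups did not overlap in 4 of the 25, with MUTYH-null higher, against 4.23% of all genes. Socs3, the feedback inhibitor of STAT3 signaling, had 5.70, 5.67 and 5.85 log2 in MUTYH-null livers and 5.37, 5.56 and 5.16 log2 in wild-type livers. The difference was 0.38 log2 (standard error 0.12, limma adjusted p = 0.963). Osmr, the oncostatin M receptor, had 6.43, 6.62 and 6.41 log2 in MUTYH-null livers and 6.24, 6.32 and 6.13 log2 in wild-type livers, a difference of 0.26 log2 (standard error 0.10, limma adjusted p = 0.963). Its unadjusted p was 0.118 without mouse 3007, 0.067 without mouse 1025 and 0.105 without mouse 1001. The other genes without overlap were Il6st, the shared signaling chain of the receptors for interleukin-6 and oncostatin M, and Jak1, its kinase, with differences of 0.18 and 0.12 log2. Stat3 had 0.13 log2 and Cebpb 0.02 log2. In the cytokine genes Il6, Il1b and Tnf the groups overlapped. Il6 stood between 1.77 and 2.09 log2 in all mice, below the median of all probe sets. Il1b had -0.41 log2 and Tnf 0.10 log2. The group means of Tnf, 4.40 and 4.30 log2, also lay below the median of all probe sets. The median of the list was 0.09 log2, against -0.01 log2 over all genes.

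Other positive acute phase genes, not all of which encode plasma proteins, had small differences of mostly one sign. Of 21 measured, 20 had a positive difference, as did 47.5% of all genes, and the median was 0.10 log2. Over all genes, 2.29% were higher and 2.8% lower at an unadjusted p under 0.05 in limma. Of the 21, none was lower and 1 was higher. This was Fgl1, a fibrinogen-like protein of hepatocytes, with 10.47, 9.83 and 9.76 log2 in MUTYH-null livers and 9.28, 9.64 and 9.53 log2 in wild-type livers. Its groups did not overlap, and its difference of 0.54 log2 (standard error 0.19, limma adjusted p = 0.963) was 0.31 log2 without mouse 3003, and its unadjusted p was 0.0794 without mouse 1025. Crp, for C-reactive protein, a minor acute phase protein in mice, had 0.07 log2, also without overlap. The groups thus did not overlap in 2 of the 21, with MUTYH-null higher, against 4.23% of all genes. The fibrinogen chains Fga, Fgb and Fgg had 0.10, 0.09 and 0.09 log2. The list was less one-sided without mouse 3003, with 15 of 21 positive and a median of 0.03 log2. Of 9 negative acute phase proteins, whose output liver lowers in the response, none passed an unadjusted p under 0.05. Alb, Ttr and Ahsg, for albumin, transthyretin and fetuin-A, had -0.01, -0.02 and 0.05 log2, Fetub and Apoa2 0.05 and 0.02 log2, and Serpina6, for corticosteroid-binding globulin, -0.11 log2.

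MUTYH-null mouse 3003 had the highest value of the 6 in 7 of the 9 genes, namely Orm1, Orm2, Orm3, Saa2, Lcn2, Hp and Hpx, and the lowest in Saa3. Over all genes it was the highest in 15.6%. It was also the highest in 14 of the 21 other positive acute phase genes, among them Lbp, for lipopolysaccharide binding protein, at 8.98 log2 against 8.40 to 8.77 log2 in the others, and the metallothionein gene Mt2, at 9.85 log2 against 8.85 to 9.51 log2. Its median deviation from the mean of the 6 mice was 0.20 log2 over the 9 genes and 0.19 log2 over the other positive acute phase genes, against -0.01 log2 over all genes. It was the highest in 0 of 12 hepatocyte markers and in 1 of 9 negative acute phase genes. Of the 25 cytokine, receptor, signaling and transcription factor genes, 6 were highest in mouse 3003 and 8 in mouse 3007. Stat3 and Cebpd, which encodes C/EBPδ, were among the 6, at 8.68 and 5.15 log2, while Socs3 was highest in mouse 3008. None of the 12 hepatocyte and 5 cholangiocyte markers had an unadjusted p under 0.05 in limma. Of the former Cps1, Hnf4a, Tat and Ass1 had 0.12, 0.08, -0.09 and -0.16 log2. Of the latter Krt7, Cftr, Epcam, Sox9 and Krt19 had 0.24, 0.32, 0.06, 0.04 and -0.02 log2. The means of 3 of these 5 cholangiocyte markers lay below the median of all probe sets. The acute phase genes respond to common signals and were read from 1 array, so they are not independent of each other.

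**Figure D4:**
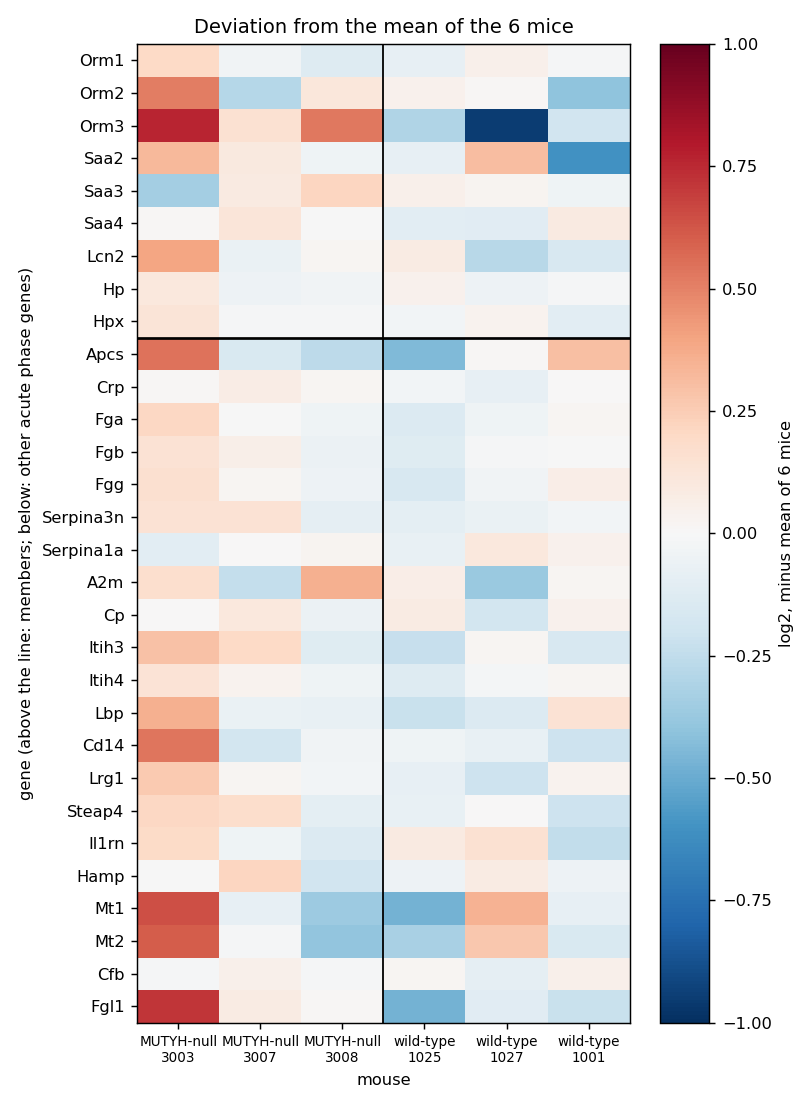
Deviation of each mouse from the mean of the 6 mice in log2, red above and blue below the mean, for the 9 genes (above the line) and 21 other positive acute phase genes (below it). The column of mouse 3003 is mostly red, with the highest value in 7 of 9 and 14 of 21 genes, and in the rows of Orm3 and Fgl1 all MUTYH-null mice lie above the mean and all wild-type mice below it.

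How the genes varied together over the 6 mice was described for 36 pairs. None passed after Benjamini-Hochberg adjustment over the pairs (exact permutation tests, two-sided, smallest adjusted p = 0.287 for Pearson's r and 0.10 for Spearman's rho), and 4 had an unadjusted p under 0.05 for r. Saa2 and Hpx ordered the mice identically, with r = 0.89 (exact permutation p = 0.0319) and rho = 1.0 (exact permutation p = 0.00278), and r was 0.94 without mice 3003 and 1001. Lcn2 and Hp had r = 0.88 (exact permutation p = 0.0194) and rho = 0.71 (exact permutation p = 0.136), but r = 0.54 without mice 3003 and 1027. Orm2 and Hpx had r = 0.88 (exact permutation p = 0.0306) and rho = 0.54 (exact permutation p = 0.297), and r = 0.08 without mice 3003 and 1001, on which the relation rested. Orm1 and Saa3 ran opposite to each other, with r = -0.94 (exact permutation p = 0.0111) and rho = -0.89 (exact permutation p = 0.0333), and r was -0.38 without mice 3003 and 3008. Orm3 had its highest r with Lcn2, at 0.79 (exact permutation p = 0.0597) and rho of 0.66 (exact permutation p = 0.175), but r = 0.11 without mice 3003 and 1027. With Orm1, Orm3 had r = 0.14 (exact permutation p = 0.792).

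**Figure D5:**
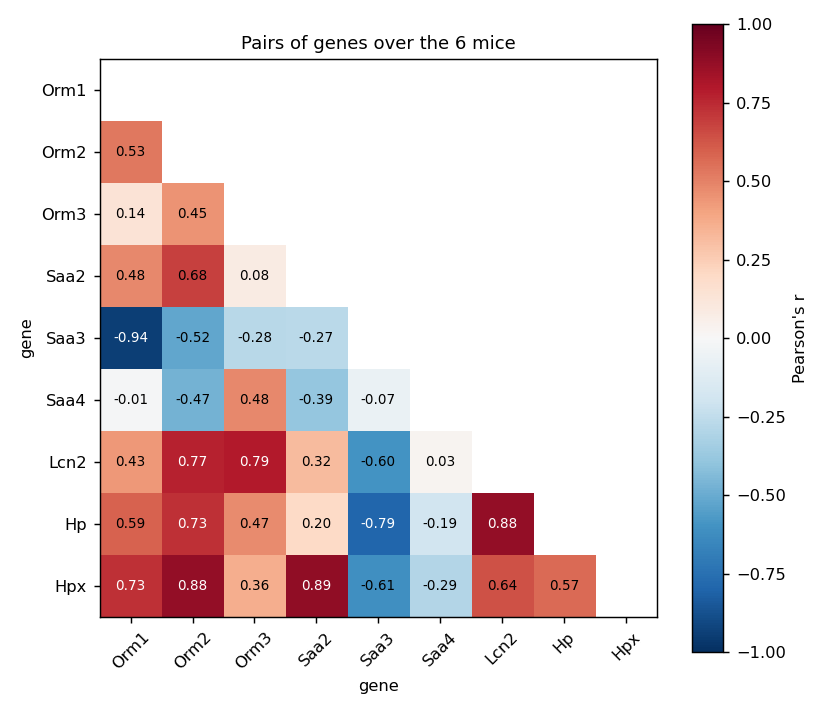
Pearson's r over the 6 mice for the 36 pairs of the 9 genes, from -1 (blue) to 1 (red). The highest value is that of Saa2 with Hpx, 0.89, the lowest that of Orm1 with Saa3, -0.94, and Orm3 has 0.14 with Orm1 and 0.45 with Orm2.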

How the data were processed

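RNA from the liver of each of 6 mice was hybridized to 1 whole-transcript array. The deposited log2 values are those the authors obtained by RMA. The submitters' processing notes list Expression Console and Transcriptome Analysis Console of Affymetrix. A human array is named in the study's methods, whereas the probe annotation is for a mouse array. Probe sets naming exactly 1 gene were kept (23521 of 41345), and the one with the highest mean stood for a gene. The 22180 genes were fitted together with limma 3.58.1 in R 4.3.3, with no covariate and Benjamini-Hochberg adjustment over all of them. Each of the 9 measured genes had 1 such probe set. Of the other listed genes, Serpina3m, C3, Tf, Nfkb1, Adrb3, Cfd and Spp1 had none. The summed level of a list is log2 of the sum of linear signals. The fit was tested on simulated data. No batch or scan date was given in the sources.

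Genes and lists were chosen with earlier results of these data known. Besides the 9 genes, those named are the members of each list at an unadjusted p under 0.05 or, where there were none, up to 4 with the smallest p. Further members were named after their values were seen. Alternative fits dropped dim genes, repeated the quantile normalization, subtracted array medians, averaged a gene's probe sets, included every probe set, used a robust variance trend or array weights, or omitted each mouse in turn. The NF-κB pattern was shortened by 1 base after a longer form had been searched and had matched 0 of the 8 promoter windows. Precision is set by the number of arrays, as there are no reads to count. Quantitative PCR and histology were not analysed here.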

Additional observations from a re-analysis of the deposited data

How the results depend on the processing

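Orm3 kept its sign and an unadjusted p under 0.05 under all 13 alternatives, from 0.72 log2 without mouse 1027 to 1.12 log2 without mouse 3007 and from 0.95 to 0.97 log2 otherwise. The number of the 9 genes at an unadjusted p under 0.05 was 1 to 2 with each mouse left out, the second being Saa2 (0.02 to 0.47 log2), and 1 under the other alternatives. With each mouse left out, differences turned sign for Orm1 (-0.0732 to 0.0934 log2), Saa3 (-0.14 to 0.14 log2) and Hp (-0.0372 to 0.0447 log2). The same held for Fetub (-0.0049 to 0.12 log2), Tat (-0.18 to 0.0654 log2) and Ass1 (-0.54 to 0.24 log2). It also held for Epcam (-0.0203 to 0.20 log2) and Sox9 (-0.032 to 0.15 log2). In Ass1, wild-type mice 1027 and 1001 stood at 6.98 and 5.41 log2. The cause was not tested. Over all 22180 genes, 454 to 580 were higher and 529 to 774 lower at an unadjusted p under 0.05 with each mouse left out. Counts in either direction in the same fits were 0 to 3 of the 21 other positive acute phase genes. They were 1 to 3 of the 25 cytokine, receptor, signaling and transcription factor genes and 0 to 1 of the 10 receptor and cargo genes. Of the markers they were 1 to 3 of 13 for neutrophil and 1 to 4 of 11 for macrophage. They were 0 to 1 of 6 for adipocyte, 0 to 1 of 12 for hepatocyte and 0 to 1 of 5 for cholangiocyte. Of the 3 pairs with r of 0.7 or more at an unadjusted p under 0.05, 1 kept such an r without the 2 mice farthest from the median, and 1 without mouse 3003, which was left out after seeing the data. No paired analysis was possible because the animals of the groups share no number.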

Other observations

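For each of the 9 genes, the gene whose values over the 6 mice were most like it by Pearson's r was taken from the 12923 genes with means above the median of all probe sets. For the orosomucoids these were Vps13c with Orm1 (r = 0.99), Pfdn2 with Orm2 (r = 0.995) and Parg with Orm3 (r = 0.988). For the serum amyloid genes they were Rin2 with Saa2 (r = 0.996), Os9 with Saa3 (r = 0.994) and Srsf2 with Saa4 (r = 0.994). Mks1 was most like Lcn2 (r = 0.995), Epn2 most like Hp (r = 0.98) and Rps12 most like Hpx (r = 0.997). Each is the highest of many values over 6 mice and is given as a description only.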
